A study of Mus musculus with 4 samples.

Results

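The Cyp4a fatty acid hydroxylase cluster is a row of related cytochrome P450 genes on mouse chromosome 4. Its members were taken by name, as the 6 genes Cyp4a10, Cyp4a12a, Cyp4a12b, Cyp4a14, Cyp4a31 and Cyp4a32. All 6 were among the 8797 genes listed for each mouse, and all 6 were among the 3632 genes with a B6-allele frequency in every mouse. The 4 mice were female F1 hybrids of the inbred strains B6 and MSM, analyzed at 5 months of age, in reciprocal crosses. The 2 MB mice had an MSM mother, the 2 BM mice a B6 mother, and the father was of the other strain. B6 descends mainly from western European house mice and MSM from Japanese wild mice, so that each F1 mouse carried a chromosome 4 of both strains. Poly(A) RNA of whole liver was sequenced, no agent was given and no allele was engineered in any group. For each gene and mouse the authors deposited the expression in FPKM, which is a fragment count scaled to transcript length and library size, and the B6-allele frequency. The frequency is the fraction of allele-assigned reads that carried the B6 base, so that 0.5 stands for equal use of both alleles. In bulk liver, fewer cells that express a gene and less RNA per cell cannot be told apart.

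Enzymes of the CYP4A family add a hydroxyl group to the last carbon of medium- and long-chain fatty acids, the first step of omega oxidation, and some also convert arachidonic acid to 20-HETE. Omega oxidation shortens fatty acids from the end opposite the carboxyl group and runs beside beta oxidation in mitochondria and peroxisomes. In liver, Cyp4a10 and Cyp4a14 are classic targets of the fatty acid-sensing nuclear receptor PPAR-alpha and rise in fasting, while Cyp4a12a and Cyp4a12b are known for higher expression in males than in females. Cyp4a31 and Cyp4a32 are less studied relatives of Cyp4a10.

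On GRCm38 (mm10), the build of the deposited data, the members span 322.557 kb of chromosome 4 by GENCODE M21 annotation. In order along the chromosome, Cyp4a12a lies at chr4:115299046-115332815, Cyp4a12b at chr4:115411624-115439034, Cyp4a14 at chr4:115486200-115496142, Cyp4a10 at chr4:115518264-115533649, Cyp4a31 at chr4:115563649-115579015 and Cyp4a32 at chr4:115600969-115621602. Cyp4a14 is the member on the minus strand, and the other 5 are on the plus strand. All 6 are protein-coding, with 507 to 509 coding codons. The coding stretch below holds the signature around the cysteine that binds the haem iron and is shown because it is shared by the whole family. It spans the junction of exons 11 and 12, at codons 449 to 458 of Cyp4a10, 448 to 457 of Cyp4a12a and 447 to 456 of Cyp4a14, and capitals mark bases that differ from Cyp4a10:
Cyp4a10, Cyp4a31 and Cyp4a32: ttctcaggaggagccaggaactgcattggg
Cyp4a12a and Cyp4a12b: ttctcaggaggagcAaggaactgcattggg
Cyp4a14: ttctcaggaggaTcAaggaactgcattggg

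Over the whole coding sequence the members fell into close groups. Cyp4a12a and Cyp4a12b were 98.5% identical, with 23 differing bases. Cyp4a10 was 97.2% identical to Cyp4a32 and 96.6% identical to Cyp4a31, and Cyp4a31 and Cyp4a32 were 96.0% identical. Cyp4a14 stood apart, with 75.7% to 76.8% identity to the other members. The next stretches are the 60 coding bases that differ most between Cyp4a12a and Cyp4a12b, and those that differ most between Cyp4a10 and Cyp4a32. The same coding bases of Cyp4a31 are set beside the latter. They are shown because the FPKM and allele frequency of near-identical genes depend on such bases, with capitals at bases that the genes shown do not all share. The first pair covers coding bases 624 to 683 of Cyp4a12a and Cyp4a12b, in exons 5 and 6:
Cyp4a12a: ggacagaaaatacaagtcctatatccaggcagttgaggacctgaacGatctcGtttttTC
Cyp4a12b: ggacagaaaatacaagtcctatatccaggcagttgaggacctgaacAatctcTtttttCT
The next 3 cover coding bases 200 to 259 in exon 2, at chr4:115519640-115519699 in Cyp4a10, chr4:115602270-115602329 in Cyp4a32 and chr4:115565020-115565079 in Cyp4a31, all on the plus strand:
Cyp4a10: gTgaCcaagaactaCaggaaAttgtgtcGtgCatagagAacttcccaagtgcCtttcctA
Cyp4a32: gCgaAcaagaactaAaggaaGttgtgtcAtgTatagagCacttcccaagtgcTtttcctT
Cyp4a31: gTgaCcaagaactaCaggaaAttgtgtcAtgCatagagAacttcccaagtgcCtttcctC

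The B6 and MSM alleles of neighbouring Cyp4a genes were used in opposite directions. RNA of Cyp4a14 came almost wholly from the B6 allele, RNA of Cyp4a12b almost wholly from the MSM allele, and RNA of Cyp4a12a and Cyp4a32 mainly from the MSM allele. Cyp4a10 had a small excess of the MSM allele, and Cyp4a31 had no imbalance beyond the spread between mice. Imbalance was tested over all 3632 genes as log2 odds of the B6 allele, with limma and Benjamini-Hochberg adjustment, and a gene was called at an adjusted p under 0.05. Of the 6 members 5 were called, 1 toward B6 and 4 toward MSM. Of all genes tested 36.2% were called, 22.6% toward B6 and 13.6% toward MSM. The median size of the log2 odds, regardless of sign, was 3.05 over the 6 members and 0.24 over all genes.

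**Figure D1:**
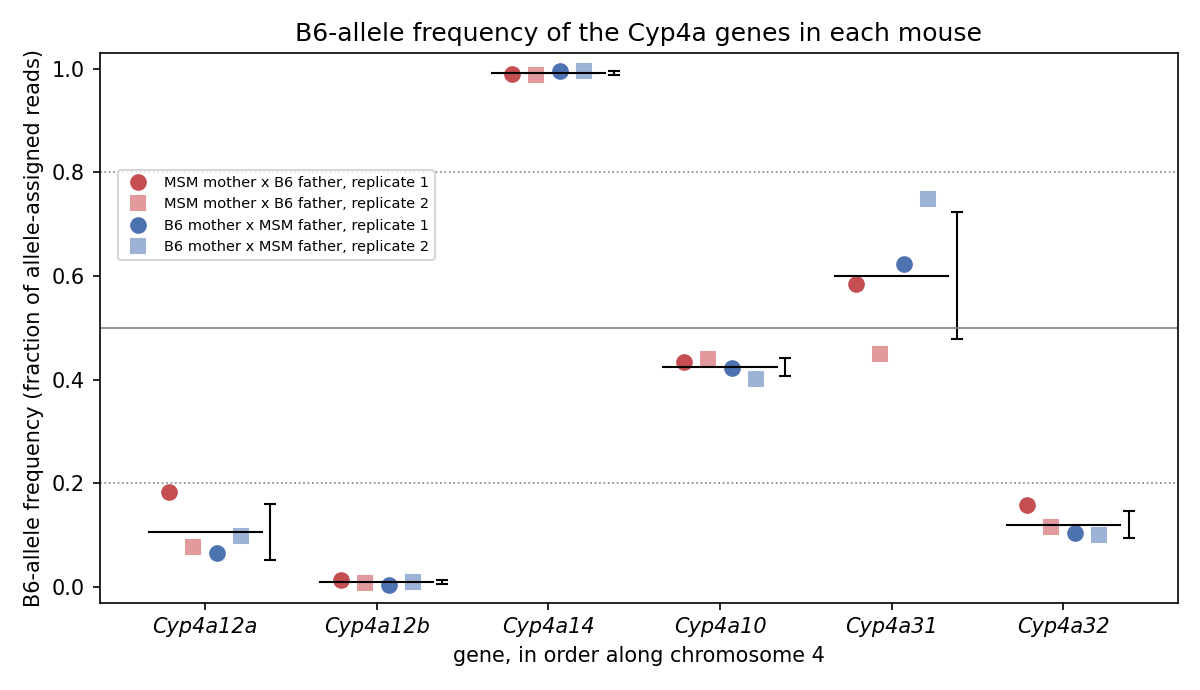
B6-allele frequency (fraction of allele-assigned reads) of each Cyp4a gene in each of 4 mice, with genes in chromosomal order, circles and squares for replicates 1 and 2, red for MB mice and blue for BM mice. The horizontal line is the mean and the bar at its right the SD (n = 4), the solid grey line is 0.5 and the dotted lines are 0.2 and 0.8. Cyp4a14 sits at 0.988 to 0.994, Cyp4a12a, Cyp4a12b and Cyp4a32 lie below 0.2 in all mice, and Cyp4a31 is the most scattered.

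Cyp4a14, a PPAR-alpha-induced lauric acid hydroxylase, had B6-allele frequencies of 0.9901 and 0.988 in MB replicates 1 and 2, and of 0.994 and 0.994 in BM replicates 1 and 2. All 4 values lay far above 0.8, the level at which the study calls a gene B6-biased, and differed by less than 0.01. The mean was 0.992 ± 0.00334 (SD, n = 4), and the log2 odds of 6.55 (SE 0.07, limma adjusted p = 1.9e-04) were held down by the test itself, because frequencies were first limited to 0.01 to 0.99 and 3 of the 4 mice were beyond these limits. Among all genes, 1.84% had a mean of at least 0.8.

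Cyp4a12b, a male-biased hydroxylase of lauric and arachidonic acid, was the mirror image. Its frequencies were 0.0137 and 0.00819 in MB mice and 0.00486 and 0.00973 in BM mice. The mean was 0.00912 ± 0.00368 (SD, n = 4) and the log2 odds were -6.51 (SE 0.10, limma adjusted p = 4.4e-04), again with 3 mice beyond the limits. Every mouse of either cross was thus close to a single expressed allele. The mean frequency of Cyp4a14 exceeded that of Cyp4a12b by 0.983, although the annotated ends of these genes are 47.2 kb apart.

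Cyp4a12a, the main arachidonic acid omega-hydroxylase of male mice, also had an excess of the MSM allele, but a looser one. Its frequencies were 0.184 and 0.0764 in MB mice and 0.0650 and 0.0978 in BM mice. MB replicate 1 stood above the other 3, and the crosses overlapped. The mean was 0.106 ± 0.0540 (SD, n = 4), and the log2 odds of -3.20 (SE 0.31, limma adjusted p = 0.0102) correspond to an MSM over B6 ratio of 9.18, with a 95% confidence interval of 4.81 to 17.5. Without either 1 of the BM mice the adjusted p rose to 0.0724 and 0.0759, past the threshold.

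Cyp4a32 gave 0.158 and 0.117 in MB mice and 0.105 and 0.101 in BM mice. All were under 0.2, the level for an MSM-biased gene, with a mean of 0.120 ± 0.0262 (SD, n = 4). The log2 odds were -2.89 (SE 0.11, limma adjusted p = 0.00277), an MSM over B6 ratio of 7.43 with a 95% confidence interval of 5.94 to 9.30. The mean frequency was at most 0.2 in 3 members, Cyp4a12a, Cyp4a12b and Cyp4a32, and in 1.35% of all genes. Each of these 3 was also under 0.2 in every mouse.

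Cyp4a10, the most highly expressed member and a PPAR-alpha target, was close to balance. Its frequencies were 0.434 and 0.440 in MB mice and 0.423 and 0.401 in BM mice, all below 0.5. The mean was 0.424 ± 0.0171 (SD, n = 4), with log2 odds of -0.44 (SE 0.05) that passed the test (limma adjusted p = 0.0121), and with an MSM over B6 ratio of 1.36, 95% confidence interval 1.23 to 1.503. The call was lost whichever mouse was left out, with adjusted p between 0.0636 and 0.0825.

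Cyp4a31 was the member whose imbalance did not pass the test. Its frequencies were 0.584 and 0.449 in MB mice and 0.622 and 0.748 in BM mice, so that 3 mice were above 0.5 and 1 below. The mean was 0.601 ± 0.123 (SD, n = 4), and the log2 odds were 0.62 (SE 0.23, 95% confidence interval -0.07 to 1.31, limma adjusted p = 0.123). Cyp4a31 also had the lowest FPKM of the members. Its SD over mice was 4 times the median SD of the 836 genes with a mean FPKM of 5 to 10, which was 0.0306, and exceeded the 90th percentile of 0.0691. The deposited values hold no reads per allele, so the depth behind a frequency is unknown and no interval can be set on a single mouse.

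Gene by gene, the members kept nearly the same order of B6-allele frequency in every mouse, from Cyp4a14 through Cyp4a31 and Cyp4a10 down to Cyp4a12b. Of the 15 pairs of members, 14 were in the same order in all 4 mice. An exact sign-flip test of the differences in log2 odds, two-sided, gave p = 0.125 for each of these 14 pairs, which is the smallest p that 4 mice allow, and 0.134 after Benjamini-Hochberg adjustment over the 15 pairs, so no pair could pass 0.05. The pair without a fixed order was Cyp4a32 and Cyp4a12a, whose log2 odds differed by 0.30 on average, with a range over mice of -0.26 to 0.75, in the same direction in 3 of 4 mice (exact p = 0.375).

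The near-identical genes Cyp4a12a and Cyp4a12b differed in allele use. The frequency of Cyp4a12a exceeded that of Cyp4a12b by 0.0602 to 0.171 in the 4 mice, a mean difference of 3.32 in log2 odds. Cyp4a10 and its closest relative Cyp4a32 were likewise apart, with means of 0.424 and 0.120. How far reads can tell such genes apart was measured on the annotated transcripts, by sliding a window of the read length of 150 bases along each. Of the windows of Cyp4a12a, 25.6% occurred without change in Cyp4a12b, and 49.6% did with at most 2 mismatches. Cyp4a10 had 31.0% of its windows in Cyp4a32 with at most 2 mismatches and 9.29% in Cyp4a31, and Cyp4a32 had 44.0% of its windows in Cyp4a10. The transcript whose windows were taken for Cyp4a32 holds 0 bases before and 3 after its coding bases, against 58 and 524 in Cyp4a10. Windows in untranslated ends of Cyp4a32 were thus not measured. Cyp4a14 had 0 windows within 2 mismatches of any other member. No window of any member was found unchanged in a gene outside the 6. The alignment kept a single place per read, so a read that matches several members equally well was placed at one of them. The FPKM and frequency of the members are uncertain for that reason, to a degree that these percentages do not measure. The windows stand for single reads on unmasked sequence, while the reads were pairs mapped to a genome with masked SNPs. The transcripts compared are those of the B6 reference, and no MSM sequence was compared. The part of shared reads in the values was not tested.

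**Figure D2:**
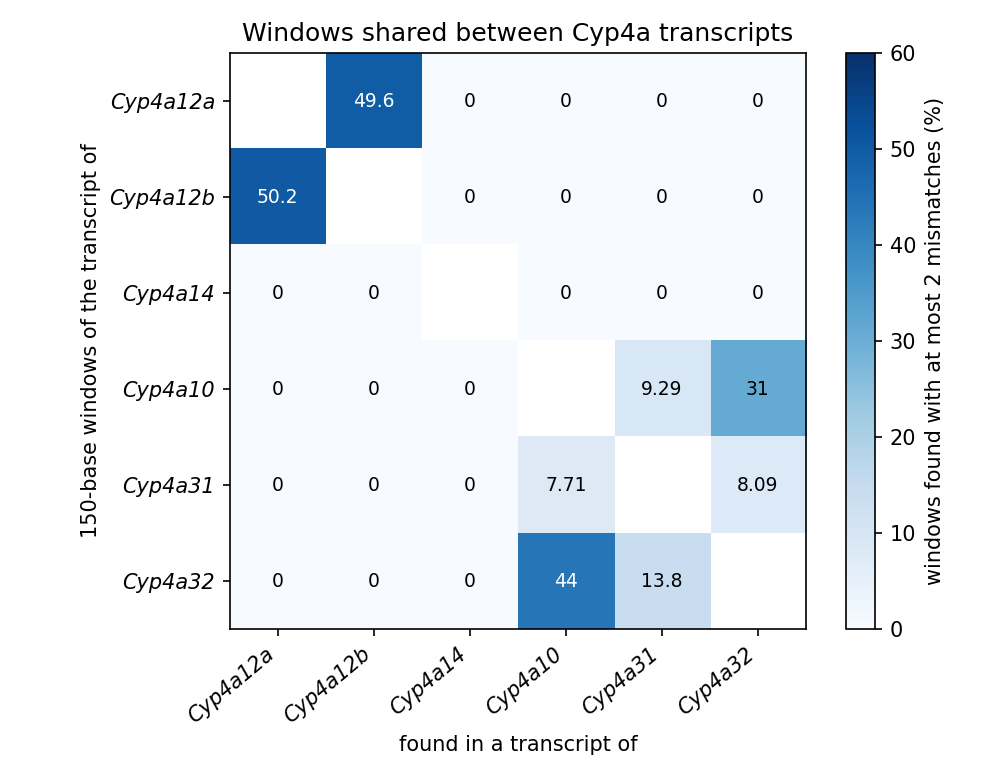
Percentage of 150-base windows of each Cyp4a transcript (rows) that occur in the transcript of another member (columns) with at most 2 mismatches, from GENCODE M21 transcripts. Cyp4a12a and Cyp4a12b share windows with each other alone, Cyp4a10, Cyp4a31 and Cyp4a32 share windows among themselves, and Cyp4a14 shares none.

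The members spanned a wide range of levels. On the FPKM scale, which is per transcript length, Cyp4a10 was highest with a mean of 805 ± 94.1 (SD, n = 4), followed by Cyp4a14 with 422 ± 58.9. Cyp4a12b with 135 ± 46.7 and Cyp4a32 with 134 ± 20.5 did not differ in mean beyond their spread. Cyp4a12b was above Cyp4a32 in both MB mice and below it in both BM mice. Cyp4a12a followed with 41.3 ± 26.7, and Cyp4a31 was lowest with 6.93 ± 1.58. Cyp4a10 ranked 113 and Cyp4a31 ranked 5891 among the 8797 genes. Of the mean FPKM summed over the cluster, Cyp4a10 made up 52.2%, Cyp4a14 27.3%, Cyp4a12b 8.71%, Cyp4a32 8.68%, Cyp4a12a 2.67% and Cyp4a31 0.449%.

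**Figure D3:**
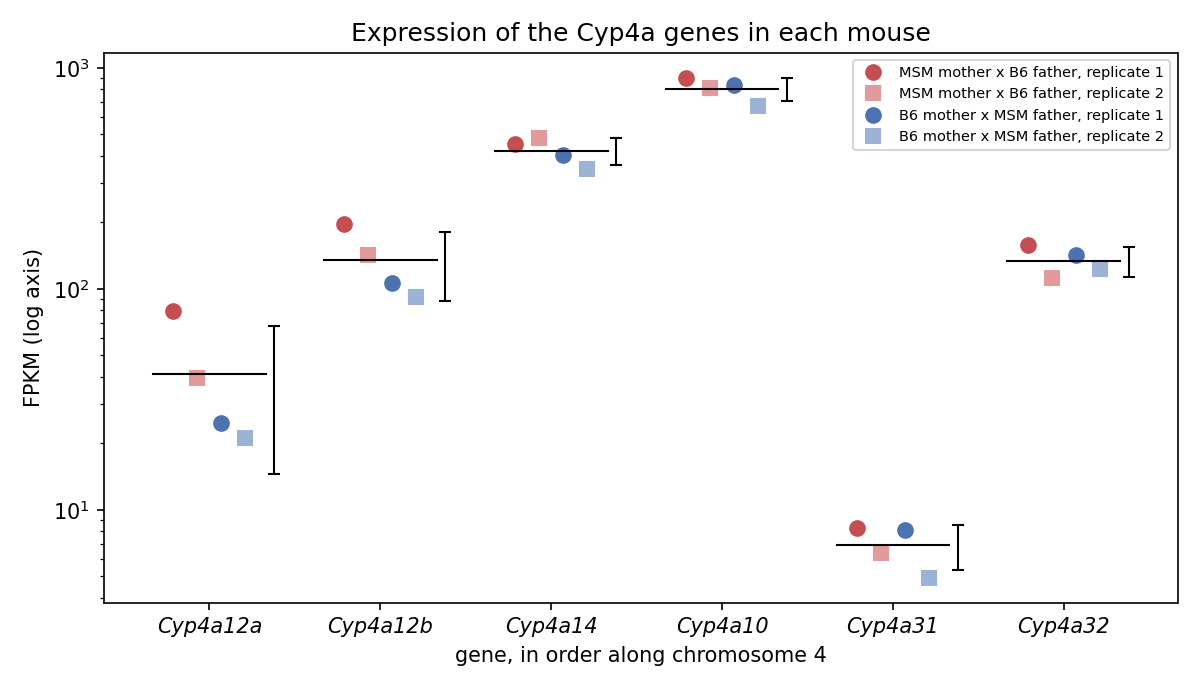
Expression (FPKM, log axis) of each Cyp4a gene in each of 4 mice, with genes in chromosomal order, colours for the cross and circles and squares for replicates 1 and 2. The horizontal line is the mean and the bar at its right the SD (n = 4). Cyp4a12a runs from 21.2 to 79.5 FPKM and Cyp4a10 from 674 to 896.

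Apportioning each gene's FPKM to the alleles by its frequency showed how different sets of genes made up the output of each chromosome. This step applies the frequency of reads at strain-specific bases to the whole gene. From the B6 chromosome, Cyp4a14 gave a mean of 419 FPKM and Cyp4a10 343, and the other 4 members gave 16.4 for Cyp4a32, 5.34 for Cyp4a12a, 4.11 for Cyp4a31 and 1.32 for Cyp4a12b. Only 2 genes thus carried nearly all of the B6 output, 53.2% from Cyp4a14 and 43.4% from Cyp4a10. From the MSM chromosome, Cyp4a10 gave 463 FPKM, Cyp4a12b 133, Cyp4a32 118, Cyp4a12a 35.9, Cyp4a14 3.67 and Cyp4a31 2.82. Cyp4a10 made up 61.6% of the MSM output, Cyp4a12b 17.3%, Cyp4a32 15.7% and Cyp4a12a 4.56%.

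Summed over the cluster, the chromosomes gave nearly equal totals. The B6 sum was 885 and 855 FPKM in the MB mice and 777 and 636 in the BM mice, and the MSM sum was 907 and 743 in MB mice and 746 and 628 in BM mice. The B6 share of the cluster total was 0.511 ± 0.0177 (SD, n = 4), from 0.494 to 0.535. The B6 sum was the higher in 3 mice and the MSM sum in 1, while single members ranged from 0.00912 to 0.992 in mean frequency.

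**Figure D4:**
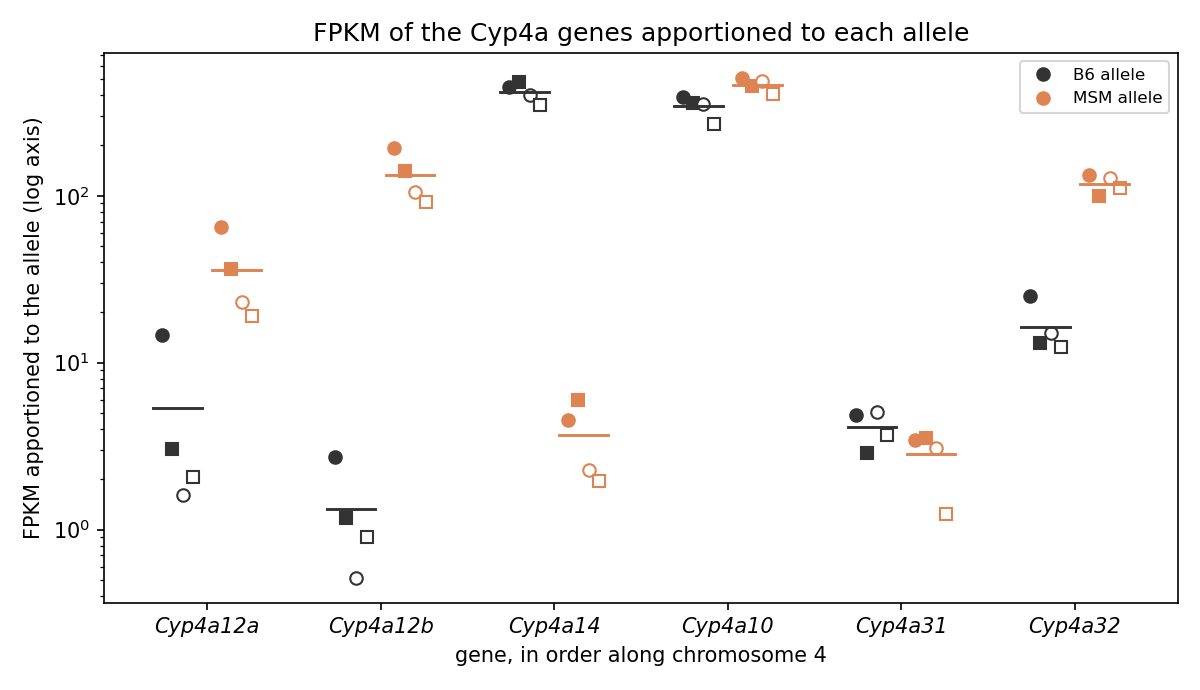
FPKM of each Cyp4a gene apportioned to the B6 allele (dark) and the MSM allele (orange) in each mouse on a log axis, with filled symbols for MB mice, open symbols for BM mice, circles and squares for replicates 1 and 2 and lines for the mean of 4 mice. The alleles are furthest apart in Cyp4a14, with means of 419 and 3.67, and in Cyp4a12b, with 1.32 and 133, and the alleles of Cyp4a10 and Cyp4a31 lie close together.

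The reciprocal crosses ask whether allele use depends on which parent gave the allele. Each called member was biased toward the same strain in both crosses, so that the favoured allele came from the mother in one cross and from the father in the other. No member was called for a difference in B6-allele frequency between the crosses by limma. Under the limits of 0.01 to 0.99, 0 of 6 had an unadjusted p under 0.05, with adjusted p from 0.873 to 0.914. For Cyp4a14 and Cyp4a12b this test was held down by the limits on the frequency, and under wider limits their differences in log2 odds (MB minus BM) moved from -0.15 to -0.99 (SE 0.15, limma adjusted p = 0.635) and from 0.23 to 0.63 (SE 0.49, adjusted p = 0.914). Of all genes 0.0826% were called. The frequencies of the crosses did not overlap in 4 members, higher in MB mice for Cyp4a10 and Cyp4a32 and lower for Cyp4a14 and Cyp4a31, and they did not overlap in 34.3% of all genes. The log2 odds of Cyp4a31 differed by -1.05 (MB minus BM, SE 0.46, 95% confidence interval -2.43 to 0.33), and by -0.65 without MB replicate 2 and -0.62 without BM replicate 2. With limits of 0.01 to 0.99, the interval was widest for Cyp4a12a, at -1.21 to 2.52 around 0.65. It was narrowest for Cyp4a10, at -0.15 to 0.44 around 0.15. These intervals are not adjusted for the number of genes. A call needed an adjusted p under 0.05, so parental differences inside or beyond these bounds could go uncalled. With 2 mice against 2, an exact permutation test of a single gene cannot pass 0.05.

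The expression of the members between the crosses was tested with limma on log2(FPKM + 1) over all 8797 genes, and no member was called. Of all genes 0.0455% were called, and all 4 of these were listed at 0 FPKM in both MB mice, among them the hepatocyte gene Cyp2e1, listed at 4876 and 6541 in the other mice and with a B6-allele frequency in all. An exact 0 in such a table can be a failed estimate, so these calls may not reflect expression. No member was listed at 0 in any mouse. The members furthest apart were the male-biased pair. Cyp4a12a had 79.5 and 39.6 FPKM in MB mice and 24.8 and 21.2 in BM mice. The crosses did not overlap, and MB replicate 1 was about 2 times its cross mate. The log2 difference was 1.26 (SE 0.32, 95% confidence interval 0.47 to 2.04), which did not pass after adjustment (limma adjusted p = 0.427, unadjusted p = 0.00818). It was 0.76 without MB replicate 1 and 1.75 without MB replicate 2. Cyp4a12b had 197 and 143 FPKM in MB mice and 106 and 92.2 in BM mice, without overlap. Its log2 difference of 0.76 (SE 0.20, 95% confidence interval 0.26 to 1.25) did not pass either (limma adjusted p = 0.443, unadjusted p = 0.0102). Those 2 members were the ones with an unadjusted p under 0.05, a level reached by 780 genes, 8.87% of all. Cyp4a12b exceeded Cyp4a12a by 2.48 to 4.35 times in FPKM over the 4 mice.

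In the mouse with the most Cyp4a12a, both alleles gave more RNA. Its MSM allele gave 64.8 FPKM in MB replicate 1 and 19.1 to 36.6 in the other mice, and its B6 allele gave 14.6 and 1.61 to 3.03. The same mouse had the highest FPKM of Cyp2d9, a male-biased steroid hydroxylase, with 151 and 77.4 in MB mice and 35.4 and 53.3 in BM mice, and of Mup20, the male pheromone darcin, with 117 and 50.2 against 34.98 and 54.6. Among 12 genes known as higher in male liver 9 were listed, and 0 were called between the crosses. Of these 9, 4 had their highest FPKM in MB replicate 1 and 5 in BM replicate 1. The median log2 difference of the 9 between the crosses was -0.03. Cyp2d9 was the 1 gene of the 9 with both MB mice above both others, beside 23% of all genes. Of the 28 listed PPAR-alpha targets of liver, 15 also had their highest FPKM in MB replicate 1. The FPKM summed over all genes was highest in that mouse too, at 671875 beside 529024 to 572780. Cyp2d9 and Mup20 were named after their values were seen. Of 16 genes known as higher in female liver all 16 were listed, and 0 were called between the crosses. By allele, 1 of the male-biased genes had a frequency, the transporter Slco1a1 with 0.650 (limma adjusted p = 0.0261). Of the 10 female-biased genes with a frequency, Cyp17a1 was called toward B6 with 0.882 (adjusted p = 0.00230), and Cyp3a41a with 0.0648 (adjusted p = 3.0e-04) and Cyp3a41b with 0.281 (adjusted p = 0.00481) were among those called toward MSM.

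The remaining members differed less. Cyp4a14 had 454 and 483 FPKM in MB mice and 403 and 349 in BM mice, without overlap, a log2 difference of 0.32 (SE 0.17, limma adjusted p = 0.606). Both MB mice were above both others in 3 members, Cyp4a12a, Cyp4a12b and Cyp4a14, and in 23% of all genes. Cyp4a10 had 896 and 813 against 839 and 674, Cyp4a32 had 158 and 112 against 143 and 123, and Cyp4a31 had 8.27 and 6.37 against 8.14 and 4.94, all with overlapping crosses. Their log2 differences were 0.18 (SE 0.19), 0.01 (SE 0.21) and 0.17 (SE 0.23), with limma adjusted p from 0.756 to 0.995.

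Among the genes that are no members, the patterns over the 4 mice closest to those of Cyp4a10 and Cyp4a14 were those of Fdps, a cholesterol synthesis enzyme, and of Lrg1, an acute-phase glycoprotein. The root mean square difference in centred log2(FPKM + 1) was 0.0122 for Fdps and Cyp4a10 and 0.0115 for Lrg1 and Cyp4a14, among the 4810 genes that averaged 10 FPKM or more. For Cyp4a32 it was Slc17a4 (0.0121), for Cyp4a31 Rdh11 (0.0518), for Cyp4a12b Serpina12 (0.0642) and for Cyp4a12a Gm12338 (0.182). With 4 mice, such a likeness is a description. Between members, Cyp4a10 and Cyp4a14 were most alike (0.112), and Cyp4a12a and Cyp4a12b differed by 0.312.

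Genes beyond the Cyp4a32 end of the cluster used both alleles. Within 1 Mb of the outer ends 16 other genes were listed, 15 of them on that side and 1 on the Cyp4a12a side. All had a frequency, and 15 of them had means between 0.4 and 0.6, a range that held 79.0% of all genes. The median over the 16 was 0.507. Of the 16, 5 were called toward B6 and 2 toward MSM by limma, beside 22.6% and 13.6% of all genes. None of the 16 was called between the crosses in expression. Cyp4b1, a related P450 known for activating xenobiotics, lies 3.12 kb beyond Cyp4a32 and had a frequency of 0.431 ± 0.0260 (SD, n = 4, limma adjusted p = 0.0353). The frequency thus moved from 0.120 in Cyp4a32 to near balance in the next listed gene. The gene outside that range was Cmpk1, a nucleotide kinase and the only listed gene within 1 Mb on the Cyp4a12a side, at 0.817 ± 0.0166 (SD, n = 4, limma adjusted p = 0.00287). The other called neighbours were Efcab14 (0.543), Mob3c (0.599), Faah (0.557) and Nsun4 (0.558) toward B6 and Mast2 (0.450) toward MSM, with limma adjusted p from 0.0104 to 0.0251.

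**Figure D5:**
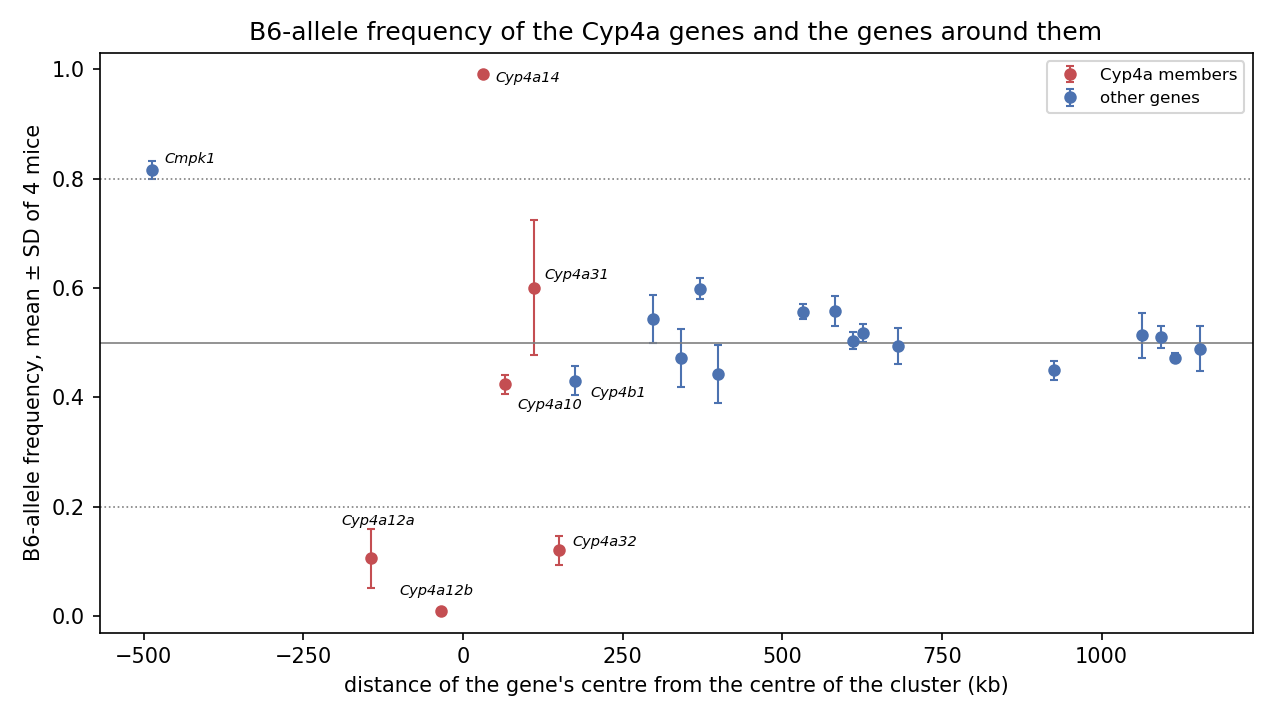
Mean B6-allele frequency with SD (n = 4 mice) of the 6 Cyp4a genes (red) and the 16 other listed genes within 1 Mb (blue), by distance in kb from the centre of the cluster. The solid line is 0.5 and the dotted lines are 0.2 and 0.8. The members range from 0.00912 to 0.992, and all other genes but Cmpk1 lie between 0.4 and 0.6.

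Other genes of the family had log2 odds between -0.98 and 0.50, smaller than those of Cyp4a12a, Cyp4a12b, Cyp4a14 and Cyp4a32 but reaching past those of Cyp4a10 and Cyp4a31. Of 16 other Cyp4 genes 6 were listed and 5 had a frequency, of which limma called 1 toward B6 and 3 toward MSM. Over all genes, 22.6% were called toward B6 and 13.6% toward MSM. Cyp4f14, which inactivates leukotriene B4, had a frequency of 0.586 (adjusted p = 0.0134) at 203 FPKM. Toward MSM were Cyp4b1, Cyp4f15 with 0.388 (adjusted p = 0.00599) and Cyp4f17 with 0.337 (adjusted p = 0.00523). Cyp4f13 had 0.534 (adjusted p = 0.0741) and was not called. None of the 6 was called in expression between the crosses.

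The wider pathway was at high expression and mostly near balance. Of 32 PPAR-alpha targets of liver 28 were listed and 13 had a frequency, with 1 called toward B6 and 2 toward MSM. Over all genes, 22.6% were called toward B6 and 13.6% toward MSM. Acadm, the medium-chain acyl-CoA dehydrogenase, had 0.538 (limma adjusted p = 0.0371), while the peroxisomal beta-oxidation enzymes Acaa1a and Hsd17b4 had 0.2998 (adjusted p = 0.00502) and 0.436 (adjusted p = 0.0130). None of the 28 was called in expression between the crosses, their median log2 difference was 0.08 against 0.02 over all genes. Both MB mice were above both BM mice in 12 of the 28, or 42.9%, beside 23% of all genes, and below in 1. Among the targets the highest level was that of Fabp1, a fatty acid-binding protein, with 4466 FPKM. Among 13 genes of electron donors and later steps of omega oxidation, 11 were listed and 8 had a frequency. Of the 8, limma called 3 toward B6 and 0 toward MSM, beside 22.6% and 13.6% of all genes. The 3 called were the alcohol dehydrogenases Adh1 with 0.598 (adjusted p = 0.0107) and Adh4 with 0.796 (adjusted p = 0.00219), which oxidize omega-hydroxy fatty acids, and Aldh1a1 with 0.539 (adjusted p = 0.0421). None of the 11 was called in expression.

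The samples carried the markers of liver. Of 10 hepatocyte markers 9 were listed, and without Cyp2e1 the other 8 summed to 17181 and 18315 FPKM in MB mice and to 11749 and 14916 in BM mice. All 8 had a positive log2 difference, and none of the 8 was called. Both MB mice were above both BM mice in 6 of them, beside 23% of all genes. The 5 listed Kupffer cell markers summed to 119 and 110 FPKM in MB mice and to 158 and 146 in BM mice. All 5 had a negative log2 difference, with a median of -0.49 beside 0.02 over all genes, and none was called. The part of cell composition in the differences of Cyp4a12a, Cyp4a12b and Cyp4a14 between the crosses was not tested. The 5 sinusoidal endothelial markers summed to 108 and 99.2 FPKM in MB mice and to 113 and 119 in BM mice. All 5 also had a negative log2 difference, with a median of -0.22, and none was called. The 4 listed stellate cell markers summed to 108 and 95.7 FPKM in MB mice and to 80.9 and 87.8 in BM mice. Of these 4, 1 had a positive log2 difference, and none was called. For cholangiocytes, adipocytes and pancreas a single marker each was listed, with at most 16.8 FPKM, and 0 of 5 kidney markers was listed. The FPKM of all genes summed to 529024 to 671875 per mouse, highest in MB replicate 1, and the median gene was at 11.2 to 11.7.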

How the data were processed

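Liver poly(A) RNA of 4 mice, 1 library each, was sequenced as directional 150-base read pairs. After trimming with Trim Galore!, the authors mapped the reads by Tophat2 against an mm10 genome with strain SNPs masked, keeping 1 alignment per read, and deposited an FPKM per gene. For the deposited fraction, the B6-allele frequency, the authors separated alleles with SNPsplit, counted reads per gene with Cuffdiff and divided B6 reads by all allele-assigned reads. Tool versions are not given in the sources used here. The deposited FPKM and fraction hold no read counts, so depth is unknown.

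Frequencies, limited to 0.01 to 0.99, became log2 odds. limma 3.58.1 in R 4.3.3 tested the mean of both crosses against 0 and the MSM mother minus B6 mother difference. Expression used limma with a variance trend on log2(FPKM + 1), which understates changes of low genes, with a minimum mean FPKM of 1 that removed no gene. All limma p-values were two-sided, adjusted over all genes by Benjamini-Hochberg and called under 0.05. The limma models were first tested on simulated data. The simulated differences between the crosses were larger than that of any member. That test therefore does not show whether differences of the members' size could be called. Python 3.11.15, numpy 2.4.6, pandas 2.3.3, scipy 1.17.1, Biopython 1.88 and matplotlib 3.10.9 were used.

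The members and gene lists were chosen with earlier results of these data known. All members were named, with other Cyp4 genes that had a frequency, neighbours next to a member, the 3 PPAR-alpha targets with the highest FPKM, the closest genes by expression pattern and genes of any list that passed a test. Cyp2d9, Mup20 and Cyp2e1 were named after their values were seen. Some genes under this rule are not reported here. Coding sequences stood in for proteins in the identities, and promoters were not compared, since a window was at hand for Cyp4a32 alone. Replicate numbers were not taken to pair mice. The labels call the replicates biological.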

Additional observations from a re-analysis of the deposited data

How the results depend on the processing

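Over 10 alternatives each, the imbalance of Cyp4a12b, Cyp4a14 and Cyp4a32 was called in the same direction every time, with limma adjusted p of at most 0.0434, and Cyp4a31 was called in none (0.102 to 0.329). Leaving out 1 mouse at a time lowered the members called toward MSM from 4 to between 2 and 3, since Cyp4a10 was lost whichever mouse was left out and Cyp4a12a without either BM mouse. The genes called over the whole table fell to 108 to 315 toward B6 and 73 to 199 toward MSM. Between the crosses, omission of a mouse gave 0 to 1 genes higher and 0 to 5 lower in frequency, and 3 to 8 higher and 5 to 16 lower in expression. A replicate block, tried as an alternative though the replicate numbers of 2 pairs only share a name (correlations of replicate differences 0.146 for log2 odds and 0.00375 for expression), kept the members' imbalance calls at 1 and 4. It gave 481 genes toward B6 and 294 toward MSM, 0 genes higher between the crosses in frequency, and 133 higher and 152 lower in expression in place of 0 and 4, with 1 member, Cyp4a12a (adjusted p = 9.4e-06), among those higher. Wider limits of the frequency left 0 genes lower between the crosses in frequency, and the frequency itself gave 2 higher in place of 1. Thresholds of 0.9 and 0.1 left 1 MSM-biased member in place of 3. Changes of sign came only in uncalled values. Over the omission of 1 mouse, the cross difference of Cyp4a12a in log2 odds ran from -0.070 (without MB replicate 1) to 1.38, that of Cyp4a31 from -1.47 to -0.62, and the expression difference of Cyp4a32 from -0.24 to 0.25 and of Cyp4a31 from -0.14 to 0.48. With equal medians the expression difference of Cyp4a32 was -0.019. The cause was not tested. Limits of 0.05 to 0.95 gave no cross difference for Cyp4a12b and Cyp4a14, and a minimum mean FPKM of 10 left out Cyp4a31.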
